A study of Mus musculus with 79 samples.

Results

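The genes of 10 Wnt ligands (Wnt2, Wnt3, Wnt3a, Wnt4, Wnt5a, Wnt5b, Wnt6, Wnt7b, Wnt8a and Wnt11) were followed through the differentiation of mouse embryonic stem cells (ESCs) that lacked the enzymes writing or erasing DNA methylation. They were taken by symbol from the 35230 genes of the deposited expression table, and 9 of the 10 were high enough to be tested. The list was drawn up with earlier results of these data known, so its shares of calls describe it and test nothing. In embryoid bodies of the parental lines the ligands came up one after another: Wnt8a led at day 4, Wnt5a at day 6 and Wnt2 at day 8. Without the 3 Tet enzymes, Wnt3, Wnt5a, Wnt5b and Wnt6 stood 3.26 to 14.6 times as high as in the parental line at day 4, and Wnt6, Wnt7b and Wnt8a were called higher at day 8, when the parental line held few reads of them. Without the 3 DNA methyltransferases, Wnt8a and Wnt3 were 19.4-fold and 4.28-fold lower at day 4, Wnt5a was 12.6-fold lower at day 6 and Wnt2 was 4.93-fold lower at day 8.

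Wnt ligands are secreted, lipid-modified glycoproteins that bind Frizzled receptors together with a co-receptor. Ligands such as Wnt3, Wnt3a and Wnt8a are known for the canonical branch, in which Lrp5 or Lrp6 is engaged, beta-catenin is stabilised and TCF/LEF factors switch on targets such as Axin2 and Sp5. Wnt5a, Wnt5b and Wnt11 are known chiefly for beta-catenin-independent signalling through Ror and related receptors, which directs cell polarity and movement. In the mouse embryo, Wnt3 is required for the primitive streak to form, and embryoid bodies pass through a comparable streak-like stage before mesoderm appears.

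The study used 4 lines: a Tet1, Tet2 and Tet3 triple knockout (TET KO), its parental line (TET WT), a Dnmt1, Dnmt3a and Dnmt3b triple knockout (DNMT KO) and the parental line of that one (DNMT WT). Tet enzymes oxidise 5-methylcytosine, the first step of active demethylation, whereas Dnmt1 maintains and Dnmt3a and Dnmt3b establish cytosine methylation. Each line was sampled in 7 conditions: ESCs held in 2i/LIF (ESC D0), epiblast-like cells at days 1 and 2 (EpiLC D1 and D2), and embryoid bodies at days 2, 4, 6 and 8 (EB D2 to D8). The 79 polyA RNA libraries formed 28 groups, 23 of 3 libraries and 5 of 2 (both knockouts at EB D2, and DNMT WT in ESCs, at EB D4 and at EpiLC D1). Each genotype was a single line, so genotype and line cannot be told apart, and nothing in the labels makes the replicates separate cultures, so p-values measure only the spread between these libraries, which may be technical.

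Because both enzyme families act on cytosines in CpG dinucleotides, the sequences just upstream of 3 ligands that changed in the knockouts are shown. They are the 250 bases before the RefSeq start (GRCm38.p6) of Wnt3 (chr11:103773925-103774174, plus strand), Wnt6 (chr1:74771642-74771891, plus strand) and Wnt11 (chr7:98834862-98835111, plus strand). The last bases of the Wnt3 window lie inside the span the deposited table gives for that gene. Capitals mark CpG, and all runs read 5′ to 3′ on the gene's strand.
Wnt3: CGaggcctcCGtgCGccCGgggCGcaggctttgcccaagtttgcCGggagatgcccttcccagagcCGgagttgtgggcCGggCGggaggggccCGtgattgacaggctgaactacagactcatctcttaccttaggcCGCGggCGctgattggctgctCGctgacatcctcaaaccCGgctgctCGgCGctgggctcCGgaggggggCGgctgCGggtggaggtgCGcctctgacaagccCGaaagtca
Wnt6: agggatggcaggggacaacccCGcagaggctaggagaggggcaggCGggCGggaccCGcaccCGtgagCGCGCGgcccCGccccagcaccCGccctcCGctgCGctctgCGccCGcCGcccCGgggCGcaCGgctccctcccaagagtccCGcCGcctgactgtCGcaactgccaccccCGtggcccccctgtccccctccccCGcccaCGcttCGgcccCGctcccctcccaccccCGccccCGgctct
Wnt11: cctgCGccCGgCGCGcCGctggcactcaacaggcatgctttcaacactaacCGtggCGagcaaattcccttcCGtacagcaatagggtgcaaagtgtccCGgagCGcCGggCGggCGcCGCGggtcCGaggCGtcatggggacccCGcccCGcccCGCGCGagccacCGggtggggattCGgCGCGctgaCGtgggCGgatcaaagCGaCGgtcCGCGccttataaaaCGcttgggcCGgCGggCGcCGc
The Wnt3 window held 22 CpG, more than 85.2% of the 32851 promoter windows of the same length, whose median was 6. The Wnt6 window held 28, more than 92.4% of windows, and the Wnt11 window 37, more than 97.8%. Over the 10 windows of 7 ligands that the RefSeq table held, the count ran from 4 and 7, at 2 inner starts of Wnt5b, to 41 at Wnt3a and 44 at Wnt4. The TCF/LEF core CTTTGA, searched on both strands, occurred in 13.8% of all windows. It was present 1 time in the Wnt11 window shown and 1 time at an inner start of Wnt5b, and was not among the letters of the other 8. DNA methylation was not analysed here, so these windows describe sequence only.

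Depth, as reads recovered from the table, ran from 7.76 to 13.9 M with a median of 11.2 M, and the lowest correlation between replicates across genes was 0.983. Library 2 of TET WT at EB D4 stood apart, with the lowest depth and 15.1% of its reads on Gm42418, a gene that overlaps ribosomal RNA. Dnmt1 was 3.63 to 6.49 RPKM in DNMT KO libraries against 39.4 to 63.2 in DNMT WT. Tet1 RNA was still 2.52 to 13.5 RPKM in TET KO against 2.33 to 26.3 in TET WT. Which part of each gene was deleted is not given in the sources used here, so RNA levels check the labels only in part. Naive markers such as Nanog and Zfp42 summed to 1132 to 1271 RPKM in every ESC library.

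Levels are RPKM (reads scaled for gene length and library depth), which can be compared between genes, given as mean ± SD over libraries. Changes are differences of log2(RPKM + 0.5) with their standard error (SE) from limma, a scale that understates the change of low genes. A gene was called, and said to have risen or fallen, when the log2 change was 1 or more in either direction and the Benjamini-Hochberg adjusted p, over the 15267 genes tested, was under 0.05. In whole embryoid bodies, fewer cells of a type and less RNA per cell cannot be told apart.

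The 10 ligands summed to 5.99 RPKM in TET WT ESCs and 2.76 in DNMT WT ESCs, and by EB D4 to 17.0 ± 3.66 and 31.7 ± 3.16. The sum stayed near these levels in DNMT WT, at 32.3 at EB D6 and 26.8 ± 1.88 at EB D8, while its make-up changed. In TET WT, Wnt8a made 56.6% of the sum at EB D4, Wnt5a 34.6% at EB D6 and Wnt2 40.6% at EB D8. In DNMT WT the same 3 ligands led on the same days, with 71.2%, 37.7% and 37.9%. TET KO followed this order, with 35.5%, 40% and 38.5%, but its sum of 44.6 ± 0.781 at EB D4 was the highest of the 28 groups. DNMT KO did not follow it. Its sum reached 16.2 ± 0.486 at EpiLC D2, of which Wnt8a made 88.1%, was 4.59 ± 0.444 at EB D4, and ended at 13.4 ± 0.785 at EB D8, when its leading ligand, Wnt5a, made 19.1%.

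**Figure D1:**
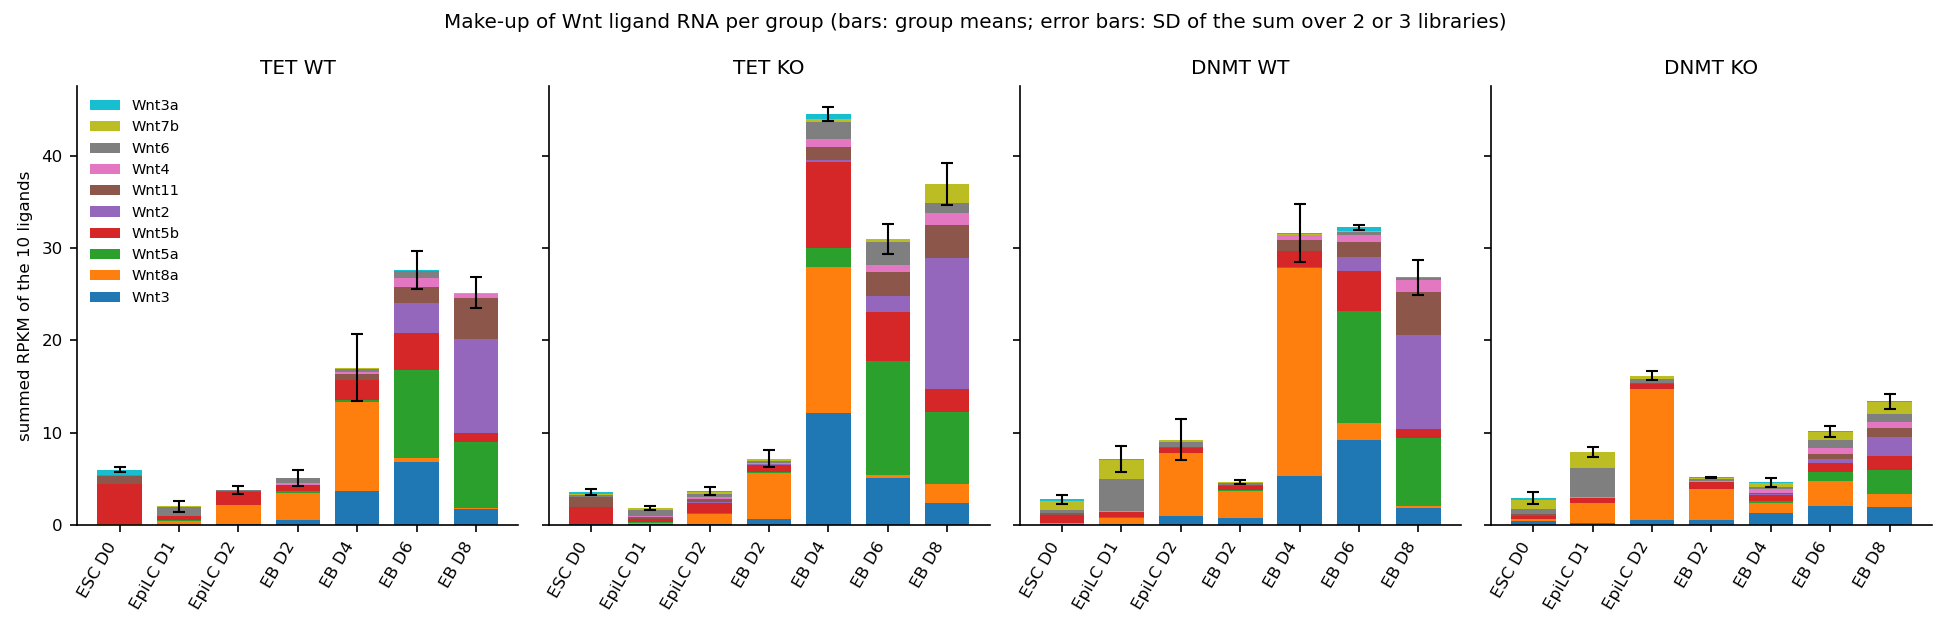
Stacked bars of the mean RPKM of the 10 ligands in each condition, 1 panel per line, with error bars for the SD of the sum over libraries. TET KO reaches 44.6 RPKM at EB D4, where DNMT KO stands at 4.59, and in DNMT KO the tallest bar over the first 5 conditions is EpiLC D2 at 16.2.

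Against ESC D0 of the same line, 88 of 216 tests of the 9 ligands were called (40.7%, against 22.2% over all genes), 72 of them rises. TET WT had 20 of 54 (37.0%, against 22.7% over all genes), TET KO 26 (48.1%, against 23.2%), DNMT WT 25 (46.3%, against 23.9%) and DNMT KO 17 (31.5%, against 19%). The comparisons of a line share its ESC libraries, so they are not independent of each other.

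Of the canonical ligands, Wnt8a (ENSMUSG00000012282, chromosome 18:34542313-34548273, plus strand), a ligand of the early posterior epiblast, rose in epiblast-like cells of every line. At EpiLC D2 its libraries held 2.46, 1.91 and 1.81 RPKM in TET WT and 5.01, 6.28 and 9.32 in DNMT WT, where ESC means were 0.0497 and 0.157. Wnt8a had risen at EpiLC D2, EB D2 and EB D4 in all 4 lines (log2 change from ESC D0 of 2.21, 2.60 and 4.17 in TET WT and 3.47, 2.40 and 5.15 in DNMT WT). It then fell from EB D4 to EB D6 by 3.31 in TET WT, 4.32 in TET KO and 3.33 in DNMT WT. Wnt8a therefore had a peak at EB D4 in these 3 lines, at 9.65 ± 2.6 RPKM in TET WT (n = 3), 15.8 ± 2.1 in TET KO (n = 3) and 22.6 ± 1.6 in DNMT WT (n = 2). In TET KO it rose again from EB D6, at 0.321 ± 0.13 RPKM, to EB D8, at 2.0 ± 0.16 (log2 change 1.62). In DNMT KO the peak stood at EpiLC D2, at 14.2 ± 0.58 RPKM (n = 3), and Wnt8a fell from EB D2 to EB D4 by 1.24.

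Wnt3 (ENSMUSG00000000125, chromosome 11:103774150-103817957, plus strand), the ligand required for streak formation, rose between EB D2 and EB D4 by 2.16 in TET WT, 3.49 in TET KO and 2.28 in DNMT WT. In DNMT WT it had already risen from ESCs at EpiLC D2, by 1.29. In TET WT, Wnt3 averaged 3.72 ± 0.36, 6.77 ± 1.3 and 1.75 ± 0.77 RPKM on days 4, 6 and 8. DNMT WT ran the same way, with 5.27 ± 0.21, 9.2 ± 0.69 and 1.84 ± 0.26. In both parental lines it fell from EB D6 to EB D8, by 1.73 and 2.05. TET KO peaked at EB D4 with 12.1 ± 1.1 and fell by 1.17 to EB D6. DNMT KO had no such peak, since its highest levels, 2.05 ± 0.16 at EB D6 and 1.88 ± 0.16 at EB D8, overlapped in their libraries. Wnt3a (ENSMUSG00000009900, chromosome 11:59248033-59290752, minus strand), a ligand of the later streak and tail bud, never reached 1 RPKM and was not tested. Its highest library was 0.833 RPKM, from 26 reads, in TET WT ESCs, where the 3 libraries averaged 0.557 ± 0.24. Next came TET KO at EB D4 (0.538 ± 0.22) and DNMT WT at EB D6 (0.388 ± 0.18), and these top groups did not differ beyond their spread. A total of 28 libraries held no Wnt3a read.

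Of the ligands known for beta-catenin-independent signalling, Wnt5a (ENSMUSG00000021994, chromosome 14:28504750-28527448, plus strand) had the steepest onset in the parental lines. It was 0.112, 0.214 and 0.111 RPKM in TET WT at EB D4 and 9.63, 9.24 and 9.81 at EB D6. The rise from EB D4 to EB D6 was 3.97 on the log2 scale in TET WT, 2.29 in TET KO, 4.32 in DNMT WT and 1.14 in DNMT KO. The highest groups, TET KO (12.4 ± 1.1) and DNMT WT (12.2 ± 0.83) at EB D6, did not differ beyond their spread, and DNMT KO reached its own highest level, 2.55 ± 0.067, only at EB D8.

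Wnt11 (ENSMUSG00000015957, chromosome 7:98835112-98855195, plus strand), which guides gastrulation movements and heart formation, climbed to EB D8. There it stood at 4.73 ± 0.18 RPKM in DNMT WT, 4.44 ± 0.11 in TET WT, 3.64 ± 0.38 in TET KO and 1.05 ± 0.25 in DNMT KO. The libraries of DNMT WT (4.56 to 4.93) and TET WT (4.31 to 4.5) lay next to each other, and those of DNMT KO lay far below. Wnt11 was also present in ESCs of the TET pair, at 0.795 ± 0.28 in TET WT and 1.03 ± 0.33 in TET KO, and had fallen by EpiLC D1 by 1.25 and 1.05.

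Wnt5b (ENSMUSG00000030170, chromosome 6:119432531-119544347, minus strand), a close relative of Wnt5a, had 2 phases of expression in TET WT. Its ESC libraries held 4.17, 4.42 and 4.49 RPKM, and it then fell by 2.38 to EpiLC D1 and was 3.98 ± 0.25 again at EB D6. In DNMT WT only the later phase was seen, with 0.772 ± 0.46 in ESCs and 4.33 ± 0.66 at EB D6. Wnt4 (ENSMUSG00000036856, chromosome 4:137277489-137299726, plus strand), known for kidney and gonad development, stayed low. Its highest groups were DNMT WT and TET KO at EB D8, at 1.34 ± 0.029 and 1.24 ± 0.32, which did not differ beyond their spread.

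Wnt2 (ENSMUSG00000010797, chromosome 6:17988940-18030585, minus strand), known from the allantois, lung and cardiac mesoderm, was the latest ligand. No read was found in 44 of the 79 libraries. From EB D4, where TET WT libraries held 0 or 1 read, it reached 3.23 ± 0.36 RPKM in TET WT at EB D6. In DNMT WT, where EB D4 libraries held no read, the rise to 1.6 ± 0.14 at EB D6 was at least 27.7-fold, counted against 3 reads over the group. The top 3 groups, all at EB D8, were TET KO (14.2 ± 1.3), TET WT (10.2 ± 2.7) and DNMT WT (10.2 ± 1.8).

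Wnt6 (ENSMUSG00000033227, chromosome 1:74771892-74785322, plus strand), a ligand of surface and extraembryonic epithelia, had its highest groups at EpiLC D1, with 3.55 ± 0.84 RPKM in DNMT WT and 3.15 ± 0.32 in DNMT KO. It had risen there by 2.29, 1.84 and 1.19 from ESCs of DNMT WT, DNMT KO and TET WT. Wnt7b (ENSMUSG00000022382, chromosome 15:85535437-85582473, minus strand), an epithelial ligand, was present at EpiLC D1 in the DNMT pair, at 2.03 ± 0.071 and 1.72 ± 0.041 RPKM, and fell after it. In DNMT WT it was below its ESC level, by 1.38 to 1.49, on every embryoid body day.

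**Figure D2:**
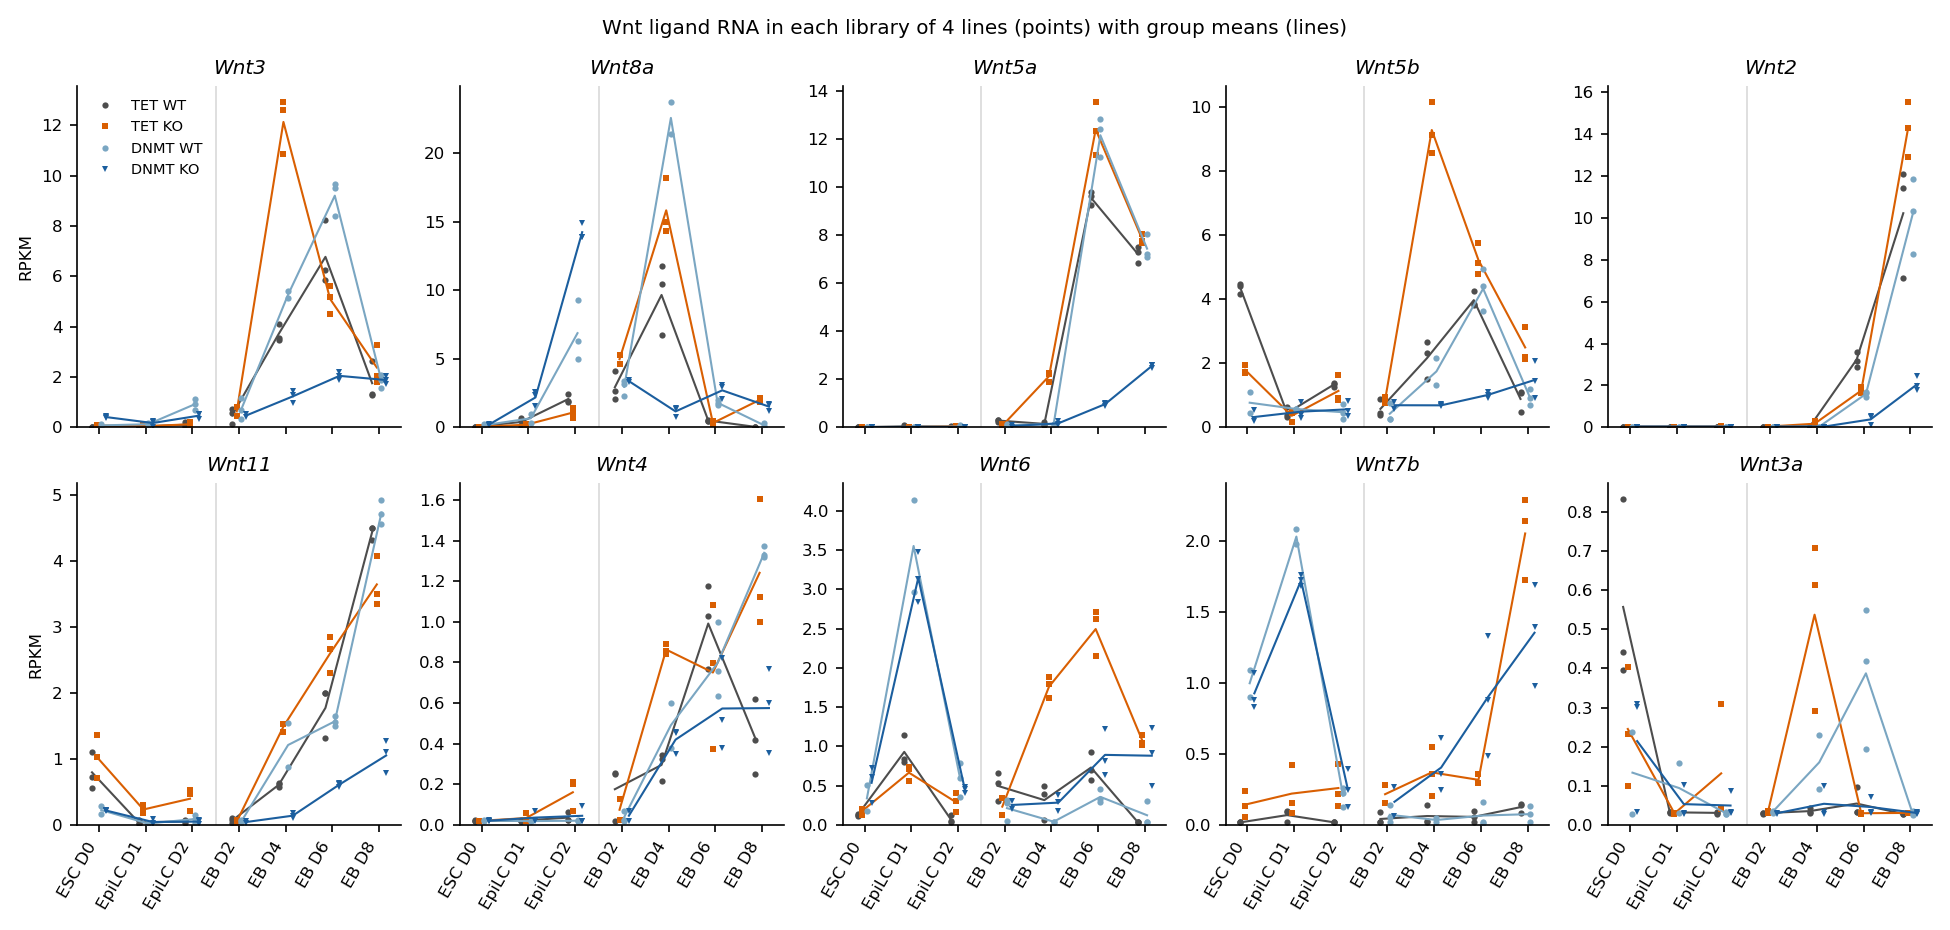
RPKM of each ligand in every library (points) and the group means (lines, joined within ESC and EpiLC and within the embryoid body days), 1 panel per ligand, coloured by line. Wnt8a and Wnt5a peak on days 4 and 6 of embryoid bodies in the 3 lines other than DNMT KO, in which Wnt8a peaks at EpiLC D2 at 14.2 RPKM. Wnt2 is highest on day 8 in every line, at 2.06 RPKM in DNMT KO.

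Between successive embryoid body days, 43 of 108 tests of the ligands were called (39.8%, against 7.81% over all genes), 32 of them rises. In DNMT KO there were 4 such calls (2.5% of all genes were called there), the fall of Wnt8a to EB D4, the rises of Wnt5a to EB D6 and EB D8, and the rise of Wnt2 to EB D8.

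The effect of losing the Tet enzymes was read from TET KO against TET WT in each of the 7 conditions. It gave 10 calls in 63 tests of the ligands (15.9%, against 7.6% over all genes), 9 rises and 1 fall. The fall was Wnt5b in ESCs, where TET KO libraries held 1.74, 1.71 and 1.94 RPKM, all below the 4.17 to 4.49 of TET WT (log2 change -1.08, SE 0.19, adjusted p = 0.000885; 6.78% of all genes were called there, 2.17% lower). No ligand was called at EpiLC D1, EpiLC D2 or EB D2, where 6.62%, 7.9% and 7.41% of all genes were. The scale used understates changes of low ligands at these stages. At EpiLC D2, for example, Wnt7b averaged 0.259 RPKM in TET KO against 0.0178 in TET WT, and Wnt11 0.395 against 0.0509. Wnt8a went the other way there, at 1.08 against 2.06.

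At EB D4, 4 of the 9 ligands rose in TET KO, against 9.47% of all genes called and 7.6% called higher. The median over the 9 was 0.85, and that of all genes tested was 0.19. Wnt5a, still almost silent in TET WT, was 2.21, 1.9 and 2.28 RPKM in TET KO (14.6-fold, log2 change 2.03, SE 0.14, adjusted p = 6.82e-09). Its TET KO libraries all lay above those of the other 3 lines on that day, whose highest was 0.258. Wnt3 rose from 3.46, 3.56 and 4.12 RPKM to 12.6, 12.9 and 10.9 (3.26-fold, 1.58, SE 0.14, adjusted p = 1.30e-07). Wnt5b was 2.32, 1.5 and 2.68 in TET WT and 9.14, 10.2 and 8.56 in TET KO (4.29-fold, 1.90, SE 0.18, adjusted p = 2.19e-07). Wnt6 was 0.49, 0.0588 and 0.395 in TET WT and 1.61, 1.88 and 1.79 in TET KO (5.60-fold, 1.51, SE 0.19, adjusted p = 5.09e-06). None of these groups overlapped. Below the size threshold were 4 others: Wnt8a (0.71, adjusted p = 0.00777), Wnt11 (0.85, adjusted p = 0.000367), Wnt4 (0.78, adjusted p = 0.000311) and Wnt7b (0.62). Wnt8a libraries held 15.0, 14.3 and 18.2 RPKM in TET KO against 10.5, 6.71 and 11.8 in TET WT, without overlap. Without library 2 of TET WT, the one with many Gm42418 reads, the 4 calls held, with Wnt3 at 1.56, Wnt5a at 2.1, Wnt5b at 1.71 and Wnt6 at 1.26.

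Markers of the primitive streak moved with these ligands. At EB D4 the 10 markers summed to 984 to 1037 RPKM in TET KO, against 58.5 to 87.4 in TET WT, where Mesp1, a mark of nascent mesoderm, had no read. Of the 10, 9 rose. T (brachyury) was 394 RPKM against 7.4 (log2 change 5.65), and Mixl1 (6.72), Lhx1 (5.65) and Gsc (4.75) also rose. EpiLC markers summed to 234 to 242 RPKM, against 327 to 474 in TET WT. Markers of other cell types also differed. Trophoblast markers summed to 20.7 to 25.5 RPKM against 2.38 to 4.202. Mesenchyme and smooth muscle markers were at 71.5 to 83.6 against 29.4 to 43.3. Blood and endothelial markers were lower, at 3.52 to 4.11 against 9.97 to 17.8. Neuroectoderm markers were at 17.8 to 21.2 against 29.5 to 43.2, and naive markers at 114 to 117 against 127 to 181. The ranges of endoderm and of cardiac muscle markers overlapped. The part of these marker changes in the ligand results was not tested.

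At EB D6, 1 ligand was called in TET KO, against 5.02% of all genes. Wnt6 was 2.62, 2.72 and 2.15 RPKM against 0.923, 0.695 and 0.573 (log2 change 1.29, SE 0.16, adjusted p = 5.08e-05). On that day trophoblast markers summed to 153 to 157 RPKM in TET KO against 363 to 412 in TET WT. Blood and endothelial markers were at 20.3 to 21.8 against 62.2 to 82.3. Streak markers, higher in TET KO at EB D4, were lower here, at 113 to 125 against 147 to 166. Endoderm markers were at 56.6 to 61.5 against 89.4 to 90.8, and neuroectoderm markers at 4.05 to 4.6 against 8.94 to 11.6. Naive markers were at 39.5 to 41.9 against 50.2 to 54.3, and mesenchyme and smooth muscle markers at 47.4 to 52.1 against 54.4 to 57.6. The ranges of EpiLC and of cardiac muscle markers overlapped. The part of these markers in the Wnt6 result was not tested. Wnt3 and Wnt5a, called at EB D4, were not called here. Wnt5a averaged 12.4 ± 1.1 against 9.56 ± 0.29, and Wnt3 5.1 ± 0.57 against 6.77 ± 1.3.

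At EB D8, 4 ligands rose in TET KO, against 9.98% of all genes called and 5.84% called higher, with a median change of all genes of 0.11. Wnt8a had 42, 39 and 44 reads in the TET KO libraries (2.02, 1.83 and 2.16 RPKM) and 0, 0 and 1 read in those of TET WT (log2 change 2.20, SE 0.14, adjusted p = 7.16e-08). Wnt6 had 30, 28 and 26 reads against 1, 0 and 1 (1.55, SE 0.20, adjusted p = 2.26e-05). Wnt7b was 2.14, 1.72 and 2.29 RPKM against 0.149, 0.141 and 0.0831 (16.5-fold, 2.03, SE 0.15, adjusted p = 2.24e-07). The TET WT libraries thus held 9 Wnt7b reads or fewer, and those of TET KO 103 or more. Uncalled, Wnt7b also had more reads in TET KO before, such as 60 against 9 at EB D4 and 53 against 9 at EB D6. Wnt5b was 2.21, 3.15 and 2.13 RPKM against 1.1, 0.49 and 1.07 (1.13, SE 0.24, adjusted p = 0.00137), a call lost without library 2 of either line (0.90 and 0.98) and with libraries centred on their median (0.97). The late ligands Wnt2 (0.49) and Wnt5a (0.11) were not called.

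The embryoid bodies of the 2 lines differed in make-up on that day. Blood and endothelial markers summed to 40.8 to 52.8 RPKM in TET KO, against 4933 to 5433 in TET WT, and endoderm markers to 87.8 to 95.4, against 538 to 578. Streak markers were at 86.2 to 101 against 20.1 to 26.1, EpiLC markers at 110 to 141 against 20.9 to 27.7, cardiac muscle markers at 162 to 239 against 39.0 to 48.1, and naive markers at 52.7 to 67.4 against 46.1 to 49.4. Trophoblast markers were at 31.8 to 37.7 against 308 to 340, mesenchyme and smooth muscle markers at 190 to 216 against 368 to 441, and neuroectoderm markers at 12.4 to 14.1 against 3.43 to 4.04. Their part in the ligand results was not tested.

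Median changes of chromosomes, less that of all genes, differed between the TET lines (TET KO minus TET WT). Chromosome 14, which holds Wnt5a, lay at -0.30 at EB D4, opposite in sign to Wnt5a. Chromosome 6, which holds Wnt5b and Wnt2, lay at -0.06 in ESCs, -0.17 at EB D4 and -0.27 at EB D8. Chromosome 1, which holds Wnt6, lay at 0.00 at EB D4 and 0.03 at EB D8. The part of chromosome-wide differences in the ligand results was not tested.

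The effect of losing the Dnmt enzymes was read from DNMT KO against DNMT WT. It gave 16 calls in 63 tests (25.4%, against 6.76% over all genes), 6 rises and 10 falls, and all but 2 of them were in embryoid bodies. Both early calls were rises of Wnt8a. At EpiLC D2, where 1.59% of all genes were called (1.09% higher), it was 13.9, 14.9 and 13.9 RPKM in DNMT KO and 5.01, 6.28 and 9.32 in DNMT WT (log2 change 1.04, SE 0.21, adjusted p = 0.00903). Without library 1 of DNMT WT the change was 0.85 and was not called. At EpiLC D1, where 0.95% of all genes were called (0.478% higher), Wnt8a was 1.6, 2.6 and 2.36 RPKM against 1.0 and 0.33 (1.25, SE 0.33, adjusted p = 0.0497). Without the lower of these DNMT WT libraries, whose column carries no matching replicate number, it was 0.82 with an adjusted p of 0.28. No ligand was called in ESCs or at EB D2, where 1.03% and 1.14% of all genes were.

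At EB D4, 3 ligands fell and none rose, against 5.82% of all genes called and 1.31% called lower. Wnt8a was 21.4 and 23.7 RPKM in DNMT WT and 1.31, 1.42 and 0.767 in DNMT KO (19.4-fold lower, log2 change -3.81, SE 0.22, adjusted p = 5.97e-09). Wnt3 was 5.12 and 5.42 against 0.952, 1.46 and 1.28 (4.28-fold lower, -1.75, SE 0.16, adjusted p = 4.49e-07). Wnt11 was 0.871 and 1.55 against 0.111, 0.133 and 0.171 (8.74-fold lower, -1.39, SE 0.18, adjusted p = 1.85e-05). No library of DNMT KO reached the lowest of DNMT WT for any of the 3. Wnt5b (-0.89, adjusted p = 0.00333) missed the size threshold, and Wnt5a was low in both lines, at 0.118 and 0.15 RPKM in DNMT WT and 0.14, 0.258 and 0.111 in DNMT KO. The streak markers summed to 9.61 to 12.2 RPKM in DNMT KO, with no Mesp1 read, against 158 to 228 in DNMT WT, and 8 of the 10 fell. Naive markers summed to 294 to 308 against 176 to 178. Blood and endothelial markers summed to 69.8 to 76.1 against 12.2 to 13.2, and endoderm markers to 21.3 to 23.2 against 4.32 to 7.17. EpiLC markers, a list that holds the targeted gene Dnmt3b, were lower, at 118 to 124 against 491 to 492. The part of these marker changes in the ligand results was not tested.

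At EB D6, 4 ligands fell and 1 rose, against 17.9% of all genes called, 11.1% higher and 6.88% lower. Wnt5a was 12.8, 12.4 and 11.2 RPKM in DNMT WT and 1.01, 0.98 and 0.91 in DNMT KO (12.6-fold lower, log2 change -3.11, SE 0.07, adjusted p = 4.46e-12). Wnt3 was 8.41, 9.68 and 9.51 against 2.03, 2.21 and 1.9 (-1.93, SE 0.12, adjusted p = 1.92e-08). Wnt5b was 4.4, 3.64 and 4.96 against 0.913, 1.01 and 1.12 (-1.67, SE 0.11, adjusted p = 2.94e-08). These 3 ligands were the main ones of DNMT WT on that day, and their groups were far apart. Wnt2 fell by 1.28 (SE 0.17, adjusted p = 2.15e-05). Wnt7b was the ligand that rose, at 1.33, 0.88 and 0.485 RPKM against 0.164, 0.0158 and 0.0163 (1.27, SE 0.19, adjusted p = 6.46e-05). Library 1 held 9 of the 10 Wnt7b reads of DNMT WT. The streak markers were again lower, at 55.9 to 64.4 against 193 to 216, and naive markers were at 331 to 345 against 52.8 to 57.0. Trophoblast markers summed to 14.6 to 16.6 RPKM in DNMT KO against 394 to 421 in DNMT WT, blood and endothelial markers to 36.5 to 41.7 against 191 to 229, and neuroectoderm markers to 42.8 to 49.6 against 10.6 to 12.1. The part of these markers in the ligand results was not tested.

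At EB D8, 3 ligands fell and 3 rose, against 18.9% of all genes called, 9.76% higher and 9.1% lower. Those that fell were the late ligands of DNMT WT. Wnt2 was 8.29, 10.3 and 11.9 RPKM in DNMT WT and 1.96, 1.79 and 2.44 in DNMT KO (4.93-fold lower, log2 change -2.05, SE 0.18, adjusted p = 3.60e-07). Wnt11 was 4.93, 4.56 and 4.7 against 1.27, 1.1 and 0.781 (4.50-fold lower, -1.77, SE 0.11, adjusted p = 1.57e-08). Wnt5a was 7.2, 8.05 and 7.08 against 2.58, 2.6 and 2.48 (2.92-fold lower, -1.38, SE 0.06, adjusted p = 9.62e-10). Wnt2 and Wnt5a had risen in DNMT KO since EB D6, by 1.56 and 1.06, and still lay below every DNMT WT library.

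The 3 that rose in DNMT KO at EB D8 were Wnt6, Wnt7b and Wnt8a, which were also called higher in TET KO on that day. The 2 knockouts have different parental lines, so the group means behind these changes share no library. The SEs and p-values come from a fit of all lines at that condition, so the calls are not independent of each other. Wnt8a was 1.65, 1.69 and 1.2 RPKM against 0.0541, 0.289 and 0.096 (log2 change 1.65, SE 0.14, adjusted p = 4.12e-07). Wnt7b was 0.976, 1.39 and 1.69 against 0.135, 0.0735 and 0.0171 (18.0-fold, 29.9-fold without library 1 of DNMT WT, log2 change 1.67, SE 0.15, adjusted p = 5.38e-07). Wnt6 was 1.24, 0.491 and 0.916 against 0.301, 0.0296 and 0.0344 (1.14, SE 0.20, adjusted p = 0.000193), a call lost without library 1 of DNMT KO (0.96). All 3 were still below 3 RPKM in every library of both knockouts on that day. Over all conditions, fewer DNMT KO rises were called with a pseudocount of 1 RPKM. Naive markers summed to 328 to 339 RPKM in DNMT KO against 28.9 to 32.8 in DNMT WT, EpiLC markers to 60.4 to 67.9 against 32.3 to 34.2, mesenchyme and smooth muscle markers to 58.1 to 63.9 against 361 to 375, and blood and endothelial markers to 127 to 138 against 3139 to 3188. Cardiac muscle markers summed to 10.1 to 13.4 against 114 to 176, and endoderm markers to 59.0 to 65.1 against 354 to 370. Trophoblast markers were at 49.8 to 53.0 against 240 to 282, and streak markers at 21.7 to 23.3 against 30.2 to 32.0. Neuroectoderm markers were higher, at 33.0 to 37.2 against 7.67 to 9.24. Their part in the ligand results was not tested. The median change of the chromosomes that hold these ligands stayed between -0.12 and 0.08 of that of all genes in DNMT KO against DNMT WT.

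**Figure D3:**
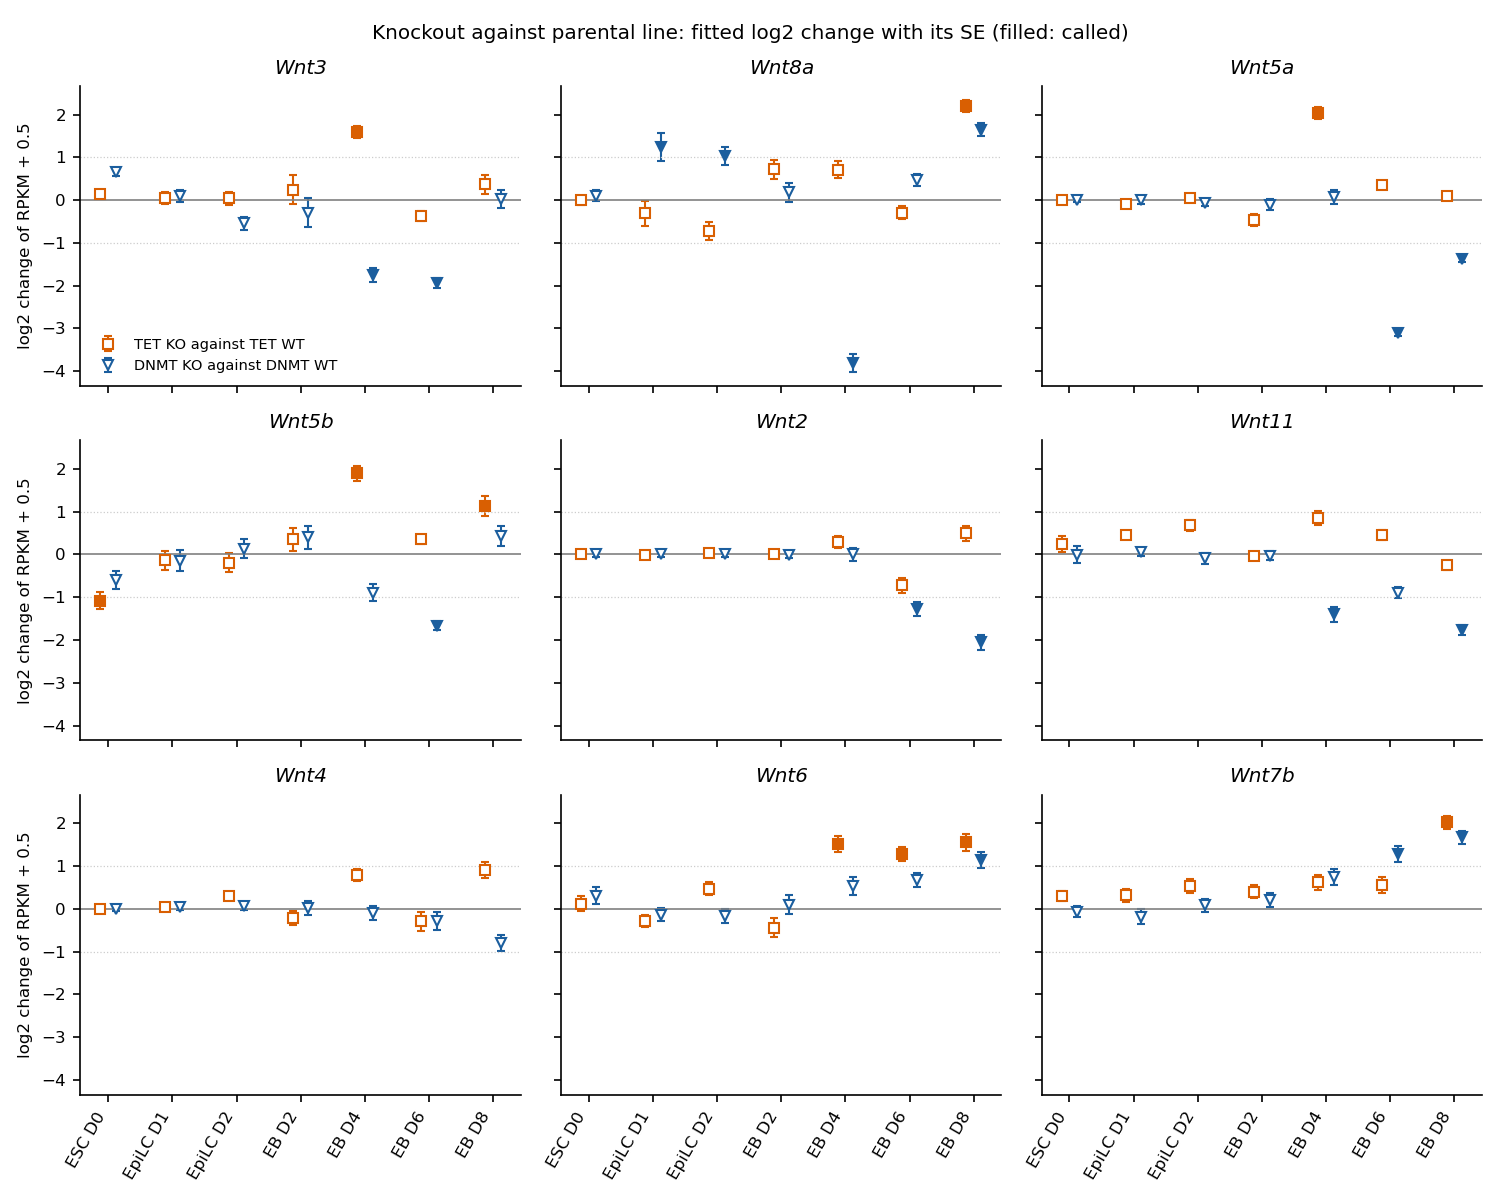
Fitted change of each tested ligand on the log2(RPKM + 0.5) scale, with its SE, for TET KO minus TET WT (squares) and DNMT KO minus DNMT WT (triangles) in the 7 conditions. Filled symbols were called, and dotted lines mark a log2 change of 1 in either direction. At EB D4 the TET KO points of Wnt3, Wnt5a, Wnt5b and Wnt6 lie above 1 while the DNMT KO points of Wnt3, Wnt8a and Wnt11 lie below -1.

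The difference between the 2 knockout effects was tested in the same fits, as DNMT KO minus DNMT WT less TET KO minus TET WT. It was called in 15 of 63 tests of the ligands (23.8%, against 13.5% over all genes), 13 of them lower in DNMT KO. At EB D4 the effects on Wnt8a differed by -4.53, on Wnt3 by -3.33, on Wnt5b by -2.79, on Wnt11 by -2.24 and on Wnt5a by -1.95, where 10.6% of all genes were called lower. For Wnt3 the 2 effects were each called and of opposite sign. At EB D6 (9.79% of all genes lower) they differed for Wnt5a (-3.46), Wnt5b (-2.02), Wnt3 (-1.56) and Wnt11 (-1.36). At EB D8 (11.7% lower) the effects on Wnt2 (-2.54), Wnt4 (-1.70), Wnt11 (-1.51) and Wnt5a (-1.48) differed, and those on Wnt6, Wnt7b and Wnt8a did not pass the test of the difference. Both calls in the other direction were of Wnt8a, at EpiLC D1 (1.56; 4.72% of all genes higher) and EpiLC D2 (1.75; 4.63%). The former call was lost without the unnumbered DNMT WT library (1.13, adjusted p = 0.0843), and with no filter on low values (adjusted p = 0.0695). The response from ESCs differed between a knockout and its parental line in 26 of 108 tests of the ligands (24.1%, against 8.36% over all genes).

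The parental lines differed from each other in 9 of 63 tests of the ligands (14.3%, against 7.79% over all genes). In ESCs, where 8.24% of all genes were called, Wnt5b was 4.17 to 4.49 RPKM in TET WT and 1.1 and 0.445 in DNMT WT (DNMT WT minus TET WT -1.98, SE 0.21, adjusted p = 2.76e-05). Wnt7b was at the level of no read to 1 read in TET WT ESCs and 1.09 and 0.901 RPKM in DNMT WT (1.53, SE 0.13, adjusted p = 5.00e-06). At EpiLC D1 (11.7% of all genes), Wnt7b (2.16) and Wnt6 (1.5) were higher in DNMT WT. At EpiLC D2 (22.8%), Wnt8a (1.49) and Wnt3 (1.22) were. Wnt8a was higher again at EB D4 (1.22; 2.29% of all genes called) and EB D6 (1.20; 2.0%), and Wnt4 at EB D8 (1.0; 2.44%). Without library 2 of TET WT, the difference of Wnt8a at EB D4 was 0.99 and was not called, and the call of Wnt4 was lost without library 1 of TET WT or library 2 of DNMT WT. Markers of stage differed between these lines in EpiLCs. At EpiLC D2, EpiLC markers summed to 296 to 308 RPKM in DNMT WT against 62.1 to 77.0 in TET WT, and naive markers to 77.1 to 90.4 against 252 to 338. At EpiLC D1, EpiLC markers summed to 126 to 129 against 53.7 to 61.8, and naive markers to 306 to 359 against 563 to 575. Chromosome 1, which holds Wnt6, lay 0.29 above all genes at EpiLC D1 and 0.38 in ESCs, and chromosome 6, which holds Wnt5b, at -0.10 in ESCs, with their part in these results not tested.

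The rest of the pathway was read at EB D4 first. Of 9 other Wnt ligands listed, only Wnt9a was high enough to be tested. Porcn, which attaches the lipid to Wnt proteins, and Wls, which carries them to the cell surface, were not called in either knockout at EB D4. For the counts of these lists, 9.47% of all genes were called in TET KO at EB D4 (7.6% higher and 1.87% lower) and 5.82% in DNMT KO (4.51% higher and 1.31% lower). Of the 10 Frizzled receptors, 3 rose in TET KO (Fzd10 by 2.1, Fzd1 by 1.63 and Fzd8 by 1.42) and Fzd7 fell by 1.09, and none was called in DNMT KO. Among the 6 co-receptors, Ror2, a receptor of Wnt5a, rose in TET KO by 1.79, and none was called in DNMT KO.

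Secreted antagonists changed in both directions. In TET KO at EB D4, 4 of 10 tested rose and 2 fell, against 7.6% of all genes higher and 1.87% lower. Cer1 was 14.9 RPKM against 0.171 (log2 change 4.53), Frzb 11.7 against 0.233 (4.05) and Dkk1, which blocks Lrp5 and Lrp6, 9.77 against 1.41 (2.54), while Sfrp1 fell by 1.75. In DNMT KO, Frzb fell by 1.62 and Notum, an enzyme that removes the lipid of Wnt proteins, rose to 11.5 RPKM against 2.52 (2.00). On the R-spondin axis, which prolongs the life of Frizzled receptors at the cell surface, Rspo3 rose in TET KO to 15.2 RPKM against 1.6 (2.93) with Rspo4 (1.39), and fell in DNMT KO by 1.11.

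The canonical targets Sp5, Axin2 and Nkd1 rose in TET KO and fell in DNMT KO at EB D4. In TET KO, 3 of 7 feedback targets and TCF/LEF factors rose and 1 fell (7.6% and 1.87% of all genes), with a median of 0.89. Sp5 was 109 RPKM against 3.95 (4.64), Axin2 29.3 against 6.62 (2.08), and Nkd1 rose by 1.24, while Tcf7l1, a repressor of the pathway's targets, fell by 1.0. In DNMT KO, 3 of 7 fell (1.31% of all genes), with a median of -0.69. Sp5 was 1.07 RPKM against 18.3 (-3.69), Axin2 3.21 against 10.2 (-1.53), and Nkd1 fell by 1.16.

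**Figure D4:**
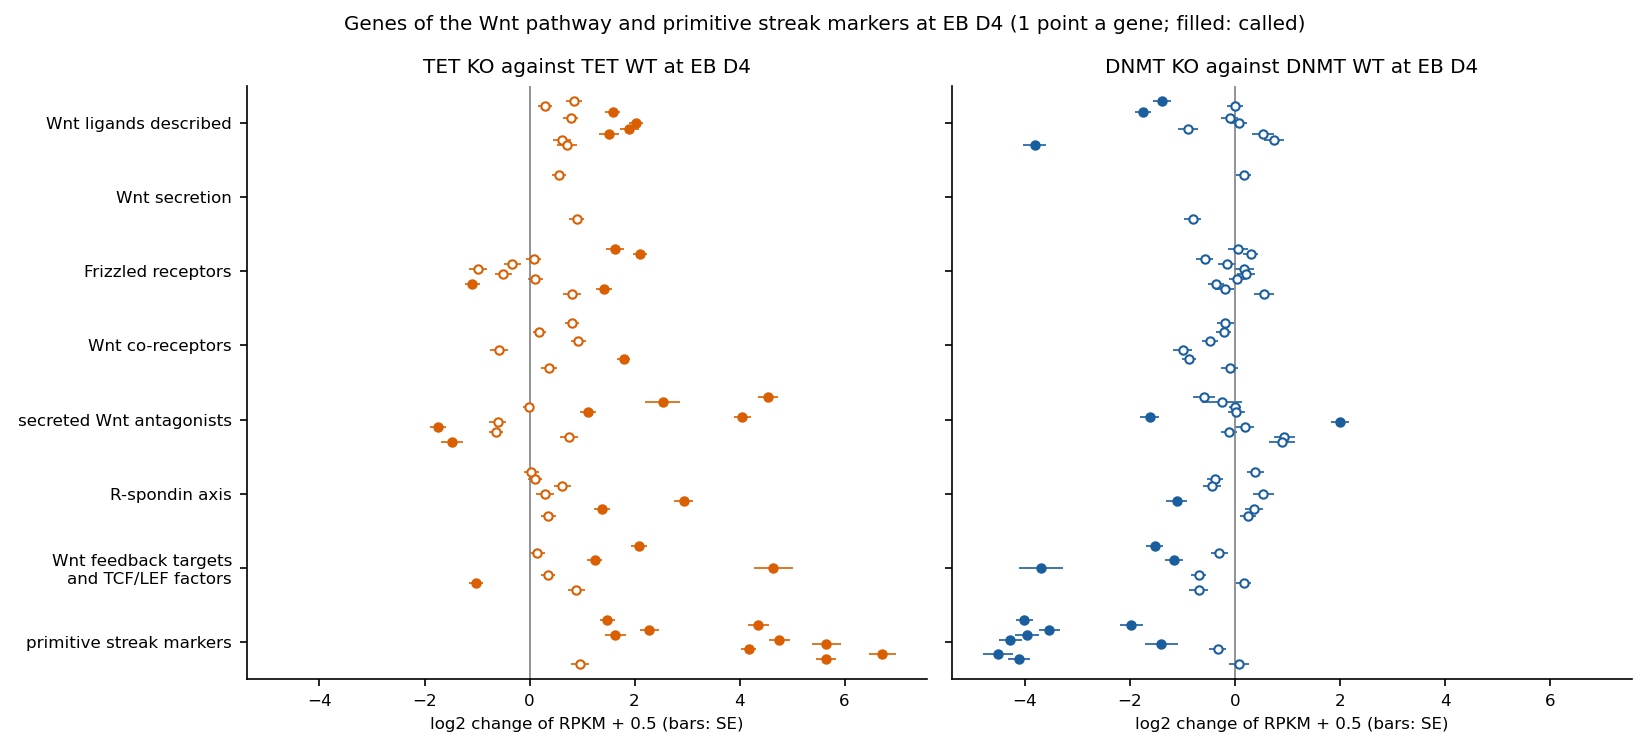
Change at EB D4 on the log2(RPKM + 0.5) scale, with its SE, of each tested gene of the pathway lists and of the primitive streak markers, for TET KO minus TET WT and for DNMT KO minus DNMT WT. Filled points were called. The streak markers have a median of 4.27 in TET KO and -3.74 in DNMT KO, and Sp5 stands at 4.64 and -3.69.

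On later days the secretion gene Wls fell in DNMT KO, to 4.0 RPKM against 25.9 at EB D6 (log2 change -2.56), and was also lower at EB D8 (-1.94), whereas Porcn rose by 1.10 and 1.48. Of the Frizzled receptors, Fzd4 fell (-1.97 at EB D6 and -2.08 at EB D8) and Fzd9 rose (1.91 and 1.82). Ror2 fell by 1.22 and 1.25. Rspo3 fell by 2.57 and Lgr5, an R-spondin receptor, by 1.80 at EB D6. Among antagonists, Notum (2.14 and 3.08) and Sfrp4 (2.66 and 2.68) rose and Frzb fell (-2.79 and -2.48). Feedback targets and TCF/LEF factors had 4 of 7 lower at EB D6 (Nkd1 by 2.47, Tcf7l2 by 1.55, Axin2 by 1.42 and Sp5 by 1.14) and 1 of 7 at EB D8 (Tcf7l2 by 1.72), where 6.88% and 9.1% of all genes were called lower. In TET KO at EB D8, Fzd5 (2.12), Fzd8 (1.24), Fzd1 (1.04) and Fzd9 (1.01) rose, as did Cer1 (2.49), Sfrp1 (1.64), Sp5 (2.26) and the ligand Wnt9a (1.14).

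Over the 28 group means, the courses of the ligands were compared in pairs. On the log2(RPKM + 0.5) scale, Wnt2 and Wnt5a had a Pearson correlation of 0.881, Wnt4 and Wnt5a 0.874, Wnt2 and Wnt11 0.862, and Wnt5a and Wnt11 0.857. Wnt3 and Wnt4 had 0.830, and Wnt3 and Wnt5a 0.730. Wnt6 and Wnt7b had 0.660. Wnt8a ran between -0.296 (with Wnt2) and 0.387 (with Wnt3). These are descriptions over groups that share lines and days.

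The tested genes whose group means were most like each ligand were as follows. Wnt5a was most like Prdm6 (0.987), Bmp2 (0.981) and Crb2 (0.976). Wnt2 was most like Rbms3 (0.982), Cd248 (0.978) and Ednrb (0.977), and Wnt4 most like Flt1 (0.957), Pam (0.950) and Cdh2 (0.948). Among those most like Wnt11 were Heg1 (0.956) and Cd99l2 (0.955). For Wnt3 they were Ptprt (0.927), the streak gene Evx1 (0.917) and Frem2 (0.916). For Wnt5b they were T (0.868), Rtl8c (0.856) and Il17rd (0.822), and for Wnt8a Pim2 (0.895), Rxrg (0.867) and Trim67 (0.856). The likeness was lowest for Wnt6 (Stim2 0.753, Cep89 0.729 and Ly6c1 0.719) and Wnt7b (Rusc2 0.783, Afap1l2 0.768 and Serpinb9b 0.762).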

How the data were processed

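The series holds 79 RNA libraries of 4 mouse lines in 7 conditions. Per the labels' protocols, column-purified, DNase-treated RNA was captured with oligo-dT and made into stranded libraries. The submitters' processing notes name Trim Galore 0.6.1, cutadapt 1.18, HISAT2 2.1.0 and GRCm38. How reads were counted, and on which annotation, is not given in the sources used here. In 1 table, the authors deposited log2 RPKM values per gene and library.

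Of 35269 entries, 35230 genes remained after keeping 1 entry per identifier. Whole reads were recovered from the steps of low values: 99.1% of values up to 20 reads were whole within 0.1, a gene without a read carries 0.9 reads, and 11 genes gave no length. Recovered reads were mostly odd from 1 to 19 (82.3%) and mostly even from 22 to 40 (71.2%), so they are not independent counts and counting error is understated. The 15267 genes that reached 1 RPKM in 2 or more libraries were fitted as log2(RPKM + 0.5) with limma 3.58.1 in R 4.3.3 (trend and robust settings), each comparison with all 4 lines at its conditions, and adjusted by the Benjamini-Hochberg method. The fit was tested on simulated data. Of the columns, 1 (DNMT WT at EpiLC D1) matched only its group and was used without a number. No pair among 74 replicate pairs was alike enough to be 1 library (chi-square per gene at least 2.17).

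The ligands and gene lists were chosen with earlier results of these data known. The text names all 10 ligands, of each pathway list the called members that changed most (4 at most), the 3 tested genes most like each ligand (clone and predicted-gene names left out; 1 such gene is not reported here) and the targeted genes; marker genes are background. Alternatives were other pseudocounts, no filter, 2 other scalings, fewer groups in the fit, plain moderation, a replicate block, voom on recovered reads, and leaving out each library. Sequences are from RefSeq (GRCm38.p6), with entries for 7 of the 10 ligands.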

Additional observations from a re-analysis of the deposited data

Results flagged for a closer look

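The results below passed a test of the difference between 2 effects (an interaction term in limma, adjusted p under 0.05, log2 difference of at least 1 in size), over 63 tests of the 2 knockout effects and 108 of the responses to differentiation. Responses start from ESC D0, so those of 1 line share their ESC libraries with each other.

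The DNMT KO effect exceeded the TET KO effect on Wnt8a at EpiLC D1 by 1.56 (adjusted p = 0.018) and at EpiLC D2 by 1.75. The call at EpiLC D1 was lost without the unnumbered DNMT WT library (1.13, adjusted p = 0.0843). It lay below the TET KO effect at EB D4 for Wnt8a (-4.53), Wnt3 (-3.33), Wnt5b (-2.79), Wnt11 (-2.24) and Wnt5a (-1.95). At EB D6 the same held for Wnt5a (-3.46), Wnt5b (-2.02), Wnt3 (-1.56) and Wnt11 (-1.36). At EB D8 it held for Wnt2 (-2.54), Wnt4 (-1.70), Wnt11 (-1.51) and Wnt5a (-1.48).

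The response of TET KO exceeded that of TET WT for Wnt5b on all embryoid body days, by 1.44 (EB D2), 2.98 (EB D4), 1.43 (EB D6) and 2.21 (EB D8). Since Wnt5b began lower in TET KO ESCs, these differences include the gap at the start. The response of Wnt6 was also larger, by 1.40 (EB D4), 1.17 (EB D6) and 1.44 (EB D8). At EB D4 the responses of Wnt5a (2.03) and Wnt3 (1.45) were larger, and at EB D8 those of Wnt8a (2.21) and Wnt7b (1.73). That of Wnt3 turned to -1.0 with voom on recovered reads (adjusted p = 0.349). Wnt3 had 0 reads in TET WT ESCs and 8 in TET KO ESCs, so its difference includes the gap at the start.

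The response of DNMT KO fell short of that of DNMT WT for Wnt3 at EpiLC D2 (-1.20). Wnt3 averaged 0.411 RPKM in DNMT KO ESCs against 0.0793 in DNMT WT, so its differences include the gap at the start. The Wnt3 change between the lines at EpiLC D2 was itself not called. At EB D4 the response of DNMT KO fell short for Wnt8a (-3.91), Wnt3 (-2.40) and Wnt11 (-1.39). At EB D6 it fell short for Wnt5a (-3.11), Wnt3 (-2.59), Wnt2 (-1.29) and Wnt5b (-1.07) and was larger for Wnt7b (1.34). At EB D8 it fell short for Wnt2 (-2.06), Wnt11 (-1.76) and Wnt5a (-1.38) and was larger for Wnt7b (1.75), Wnt8a (1.55) and Wnt5b (1.03). Wnt5b averaged 0.325 RPKM in DNMT KO ESCs against 0.772 in DNMT WT, so its differences also include the gap at the start.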

How the results depend on the processing

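Few reads limit Wnt4, Wnt6, Wnt7b and Wnt3a most, and the pseudocount of 0.5 RPKM bears on them. TET KO rises (9) numbered 18 with a pseudocount of 0.1, 21 with none and 20 with voom, and the 1 TET KO fall became 2 with a pseudocount of 0.1, 0 with 1 and 3 with voom. DNMT KO rises (6) numbered 2 and parental rises (8) 4 with a pseudocount of 1. The 1 parental fall became 3 with 0.1, 5 with none, 2 with either scaling (centring or quantile) and 4 with voom. Rises from ESC D0 (72) numbered 116 with voom, and falls (16) 28 with 0.1, 5 with 1, 27 with none and 29 with voom. Lower responses (11) numbered 7 with 1, and falls between embryoid body days (11) 17 with 0.1 and 17 with voom. Leaving out each library gave 8 to 10 and 1 for TET KO rises and falls, 5 to 6 and 10 to 11 for DNMT KO, 7 to 9 and 1 to 2 for the parental lines, 1 to 2 and 13 to 14 for the difference of effects, 71 to 74 and 15 to 17 against ESC D0, 14 to 17 and 10 to 12 for responses, and 31 to 33 and 11 to 13 between days. Of 207 single calls, 57 were lost with a pseudocount of 1, 14 with centring, 18 with quantile scaling and 20 without some library. The Wnt3 response to EB D4 of TET KO minus TET WT turned from 1.45 to -1.0 with voom (adjusted p = 0.349). Wnt3 had 0 reads in TET WT ESCs and 8 in TET KO ESCs, and the response includes this gap at the start. The part of the gap in the reversal was not tested.

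Same-numbered libraries did not in general deviate together (36 correlations from -0.241 to 0.289, 4 of them over 0.1, 14 highest with the own number). The DNMT lines at EpiLC D2 held 0.289 for replicate 1 and 0.107 for replicate 2. The range over all conditions therefore cannot settle whether the numbers pair samples in single conditions. With the replicate block, the 2 positive differences of effects became 1, as with no filter (1). The one lost was Wnt8a at EpiLC D1 (0.75 with the block), and the Wnt8a change at EpiLC D1 in DNMT KO was 0.43. The unnumbered DNMT WT library formed a block level of its own, so the block left that group only library 1. At EpiLC D1 the block is therefore no check separate from leaving that library out.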
